A study of Mus musculus with 49 samples.

Results

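The 10 genes described here were grouped as markers of resident and alternatively activated macrophages: Mrc1, F13a1, Tmem119, Cx3cr1, Csf1r, Adgre1, Aif1, Lyz2, Cebpa and Cebpb. The group also holds genes of myeloid cells more generally, such as Lyz2, Cebpa and Cebpb. They were taken by name from the table of bone marrow-derived macrophages (BMDM), which holds 14896 genes, and all 10 had a row. All 10 also passed the filter on low values, 1 or more read counts per 1 M reads (CPM) in 3 or more libraries, that left 12058 genes for testing. The study compared C57BL/6 mice that were wild type (WT) or knockout (KO) for Elf4, an ETS-family transcription factor whose human counterpart the series title links to inflammation. Of its 49 libraries, 18 are BMDM: marrow cells grown for 7 days in M-CSF, the growth factor for macrophages, and sequenced as polyA RNA. They form 6 groups of 3 libraries, WT and KO at 0 h without treatment and at 4 h and 16 h of lipopolysaccharide (LPS, 100 ng/ml), the bacterial cell wall component that activates TLR4. Every group shares the strain and the M-CSF culture. The part of Elf4 that was deleted and the age and sex of the mice are not given in the sources used here. The table's header gives each library a mouse number of its own, the same number that the labels give the library. The sample titles, however, repeat the replicate numbers at every time. Most libraries of 1 genotype and replicate number also deviated together between times, as given below. Whether libraries of 1 genotype came from separate mice or cultures is thus uncertain, and p-values may measure only the spread between these libraries.

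Macrophages that live in tissues are recognised by receptors for uptake, growth and position. Mrc1, the mannose receptor CD206, takes up glycoproteins and is a standard marker of alternative (IL-4-driven) activation, while F13a1, the A subunit of the coagulation transglutaminase factor XIII, is made by alternatively activated macrophages. Csf1r is the receptor for M-CSF, Cx3cr1 the receptor for the chemokine CX3CL1, and Adgre1 the adhesion receptor F4/80. Tmem119 is a membrane protein used to tell microglia from other brain macrophages. Aif1 encodes the calcium-binding protein IBA1, Lyz2 the lysozyme of myeloid cells, and Cebpa and Cebpb are C/EBP transcription factors of myeloid differentiation and of the inflammatory response.

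The deposited CPM summed to between 950599 and 954161 per library, and the step between low values places the depth at 11.5 to 16.8 M reads. Elf4 was lower in every KO library: 96.4, 108 and 112 CPM in WT replicates 1, 2 and 3 at 0 h against 21.4, 19.1 and 25.5 in KO, a log2 difference of -2.22 (adjusted p = 2.21e-09), with -1.95 at 4 h and -2.12 at 16 h. Other macrophage genes were present in all 18 libraries, Mpeg1 at 2787 to 4596 CPM, Cd68 at 347 to 975 and Mertk at 52.5 to 118. Defining genes of other blood cells were low: Flt3, Clec9a and Cpa3 were listed at the table's lowest value in 7 libraries each and reached at most 0.466 CPM in any. Fibroblast genes were not absent, with Col1a1 at 93.8 to 1030 CPM, and their sums are given below beside F13a1 and Tmem119. In bulk RNA, fewer cells of a type and less RNA per cell cannot be told apart.

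At 16 h of LPS 7 of the 10 genes were called higher in KO macrophages and none was called lower: F13a1, Tmem119, Cx3cr1, Lyz2, Mrc1, Csf1r and Adgre1. Among all tested genes 30.5% were called at that time, 20.9% as higher in KO and 9.65% as lower. The median log2 difference of the 10 genes was 0.51 against 0.12 over all genes. The genes were chosen with earlier results of these data known, so their count and median are not independent of that choice. Other settings of the fit gave 5 to 8 called genes at 16 h. At 4 h 2 of the 10 were called higher in KO, Aif1 and Cebpa, with 2.38% of all genes called higher and 1.81% lower, 4.19% in all. At 0 h 1 was called higher, Aif1, with 0.141% of all genes called higher and 0.299% lower, 0.44% in all. Differences are given on the log2(CPM + 1) scale, which understates the change of low genes, and a gene was called at an adjusted p below 0.05 in the limma fit.

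**Figure D1:**
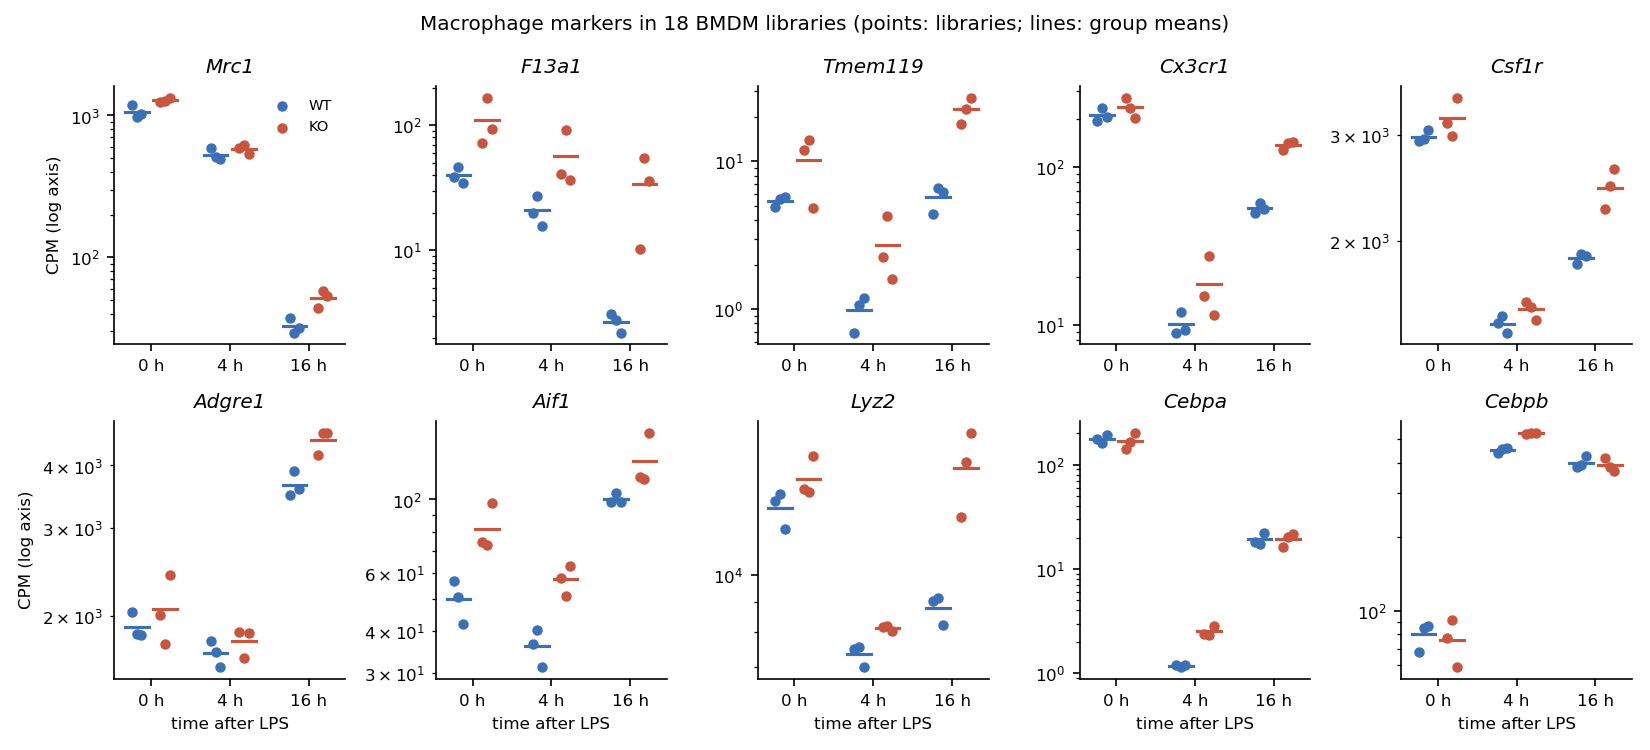
CPM of each gene (log axis) by time after LPS, WT in blue and KO in red, with 1 point per library and a line at the group mean. At 16 h the 3 KO libraries lie above the 3 WT libraries for 8 of the 10 genes, all but Cebpa and Cebpb.

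F13a1 had the largest difference in favour of KO at 16 h among the 12058 genes tested. At 0 h it stood at 38.4, 46.3 and 34.6 CPM in WT replicates 1, 2 and 3 and at 71.8, 166 and 93.8 in KO. At 4 h the F13a1 values were 19.8, 27.3 and 15.7 in WT and 41.1, 91.0 and 36.8 in KO. At 16 h WT had 3.13, 2.77 and 2.21 CPM and KO 10.2, 55.0 and 36.1. The WT and KO libraries did not overlap at any time, and KO replicate 2 was the highest at each. The mean at 16 h was 12.5 times higher in KO, a log2 difference of 2.96 (95% interval 2.02 to 3.90, adjusted p = 2.16e-04). F13a1 differed by 1.37 at 0 h (adjusted p = 0.218) and 1.30 at 4 h (adjusted p = 0.117), neither past the threshold. Without KO replicate 2 at every time, an alternative added after seeing the data, the difference at 16 h was 2.47 (adjusted p = 3.14e-04).

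Tmem119 had rank 3 among all genes by its difference in favour of KO at 16 h. It stood at 4.90, 5.58 and 5.74 CPM in WT and 11.9, 14.0 and 4.80 in KO at 0 h, where the groups overlapped through KO replicate 3. The log2 difference at 0 h was 0.70 (adjusted p = 0.425), 1.12 without KO replicate 3 (adjusted p = 0.0423) and 0.43 without KO replicate 2 at every time (adjusted p = 0.704). At 4 h it was near the filter, 0.693, 1.06 and 1.19 in WT against 2.24, 4.27 and 1.59 in KO. At 16 h Tmem119 was at 4.40, 6.60 and 6.21 CPM in WT and 17.97, 22.5 and 27.0 in KO, all KO libraries above all WT ones. The log2 difference was 1.80 at 16 h (95% interval 1.18 to 2.42, adjusted p = 4.00e-04), and 0.84 at 4 h (adjusted p = 0.126).

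Cx3cr1 libraries of both genotypes overlapped before LPS, with 193, 235 and 207 CPM in WT and 273, 235 and 204 in KO. The interval of the log2 difference at 0 h ran from -0.26 to 0.58. At 4 h it was 8.92, 12.0 and 9.28 in WT and 15.3, 27.2 and 11.5 in KO, and the groups overlapped. At 16 h Cx3cr1 stood at 50.7, 58.6 and 54.3 CPM in WT and 127, 142 and 143 in KO. Every KO library was above every WT library. The KO mean was 2.52 times the WT mean, a log2 difference of 1.32 (95% interval 0.89 to 1.74, adjusted p = 2.28e-04). At 4 h the difference was 0.70 with an adjusted p of 0.0563, and 0.0429 after median-ratio scaling, which divides each library by its median ratio to the geometric mean of all libraries. Without KO replicate 2 at every time it was 0.38 (adjusted p = 0.225), and without KO replicate 3 at 4 h it was 0.96 (adjusted p = 0.0119).

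Mrc1 had 1181, 981 and 1032 CPM in WT and 1244, 1272 and 1333 in KO at 0 h. At 4 h it had 591, 505 and 489.6 in WT and 589.9, 621 and 538 in KO, which overlapped. At 16 h Mrc1 was down to 37.2, 29.4 and 31.8 CPM in WT and 43.6, 58.1 and 53.0 in KO. What remained was higher in every KO library, 1.57 times on the means (log2 difference 0.63, adjusted p = 5.68e-04). Mrc1 at 0 h differed by 0.27 (adjusted p = 0.383).

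Lyz2 stood at 13332, 13733 and 11971 CPM in WT and 13978, 13806 and 15899.9 in KO at 0 h. At 4 h it stood at 7501, 7559 and 6977 in WT and 8163, 8201 and 8041 in KO. At 16 h the Lyz2 values were 9038, 9148 and 8231 CPM in WT and 12552, 15519 and 17434 in KO. The KO libraries at 16 h overlapped those at 0 h, while the WT libraries at 16 h all lay below those at 0 h. The log2 difference was 0.77 (95% interval 0.50 to 1.05, adjusted p = 4.97e-04), against 0.16 at 0 h. Lyz1, a neighbouring near-identical lysozyme gene on chromosome 10, was at 16.3 to 18.4% of Lyz2 in every library and also higher in KO at 16 h (0.83, adjusted p = 1.33e-04). How the authors' counting split reads between the 2 copies is not given, so the share of each is uncertain.

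Csf1r was at 1831, 1903 and 1888 CPM in WT and 2258, 2464 and 2629.6 in KO at 16 h, after 1462, 1499 and 1407 and 1581, 1554 and 1479 at 4 h. The difference at 16 h was 0.38 (adjusted p = 0.0022). At 0 h Csf1r lay between 2929 and 3461 CPM over both genotypes. Adgre1 was at 3491, 3902 and 3581 CPM in WT and 4199, 4654 and 4637 in KO at 16 h, a difference of 0.30 (adjusted p = 0.0432). Both were the smallest of the 7 called differences, and both lost the call after median-ratio scaling, which moved the median of all genes at 16 h from 0.12 to 0.02 (Csf1r 0.27, adjusted p = 0.0577, and Adgre1 0.18, adjusted p = 0.347). Adgre1 also lost it with no filter (adjusted p = 0.0683), with the 6 libraries at 16 h fitted alone (0.0734), and when any of 5 of those libraries was left out, all but KO replicate 1 (0.0501 to 0.131).

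Aif1 was the one gene called higher in KO at rest, with 56.8, 50.8 and 42.0 CPM in WT and 74.6, 72.8 and 97.2 in KO. At 4 h it had 36.5, 40.4 and 31.1 in WT and 57.9, 51.2 and 63.1 in KO. At 16 h Aif1 was at 98.2, 104 and 98.1 CPM in WT and 117, 115 and 159 in KO. Every KO library exceeded every WT library at each time. The log2 difference was 0.70 at 0 h (adjusted p = 0.0368), 0.66 at 4 h (adjusted p = 0.0134) and 0.36 at 16 h, where it missed the threshold (adjusted p = 0.059). Fitting the 6 libraries at 16 h alone (adjusted p = 0.0433), the random effect of genotype and number (0.0402), or leaving out KO replicate 1 at 16 h (0.0493) gave a call there. At 0 h the call was lost after median-ratio scaling (adjusted p = 0.116), with the 6 resting libraries fitted alone (adjusted p = 0.297), and without any of 5 of those libraries, all but KO replicate 1. At 4 h it was lost without WT replicate 3 (adjusted p = 0.0694) or KO replicate 3 (adjusted p = 0.0535).

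Cebpa was at its lowest at 4 h and higher in KO there, with 1.21, 1.14 and 1.19 CPM in WT and 2.40, 2.33 and 2.86 in KO. The KO libraries stood above the WT ones by a ratio of 2.14, a log2 difference of 0.69 (adjusted p = 0.00702, and 0.0568 with the 6 libraries at 4 h fitted alone). At 0 h Cebpa was at 176, 163 and 191 CPM in WT and 141, 166 and 203 in KO, and at 16 h at 18.2, 17.5 and 22.3 and 16.3, 20.2 and 21.7. The groups overlapped at both times, and the interval of the difference at 16 h was -0.28 to 0.29. Cebpb had 439, 454 and 459 CPM in WT and 521, 529 and 529.5 in KO at 4 h. These did not overlap, yet the difference of 0.22 missed the threshold (adjusted p = 0.336), and at 16 h its interval was -0.29 to 0.21.

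**Figure D2:**
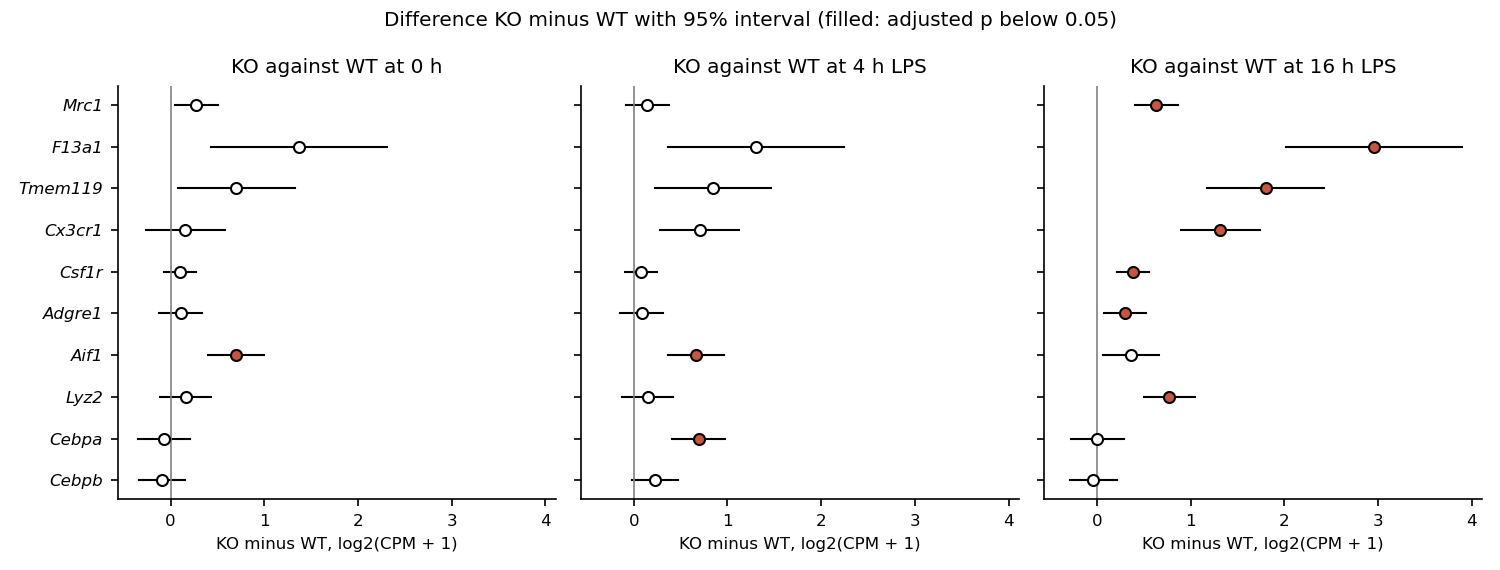
Difference KO minus WT on the log2(CPM + 1) scale with its 95% interval for each gene at 0, 4 and 16 h, filled where the adjusted p is below 0.05. Filled points number 1 at 0 h, 2 at 4 h and 7 at 16 h, where F13a1 reaches 2.96.

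The groups of 3 failed to overlap for 4 of the 10 genes at 0 h, where 0.44% of all genes were called, for 6 at 4 h (4.19% called) and for 8 at 16 h (30.5% called). Over all genes groups failed to overlap for 14.2%, 22.4% and 48.7% at these times.

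Whether the KO difference itself changed with LPS was tested as the difference at 16 h minus that at 0 h, which was called for 6.45% of all genes, 3.62% as higher and 2.83% as lower. Of the 10 genes Cx3cr1 passed, with 1.16 (95% interval 0.56 to 1.75, adjusted p = 0.0253). Its resting libraries overlapped between genotypes and its 16 h libraries did not. Lyz2 was at 0.61 with an adjusted p of 0.0563, F13a1 at 1.58 (0.129) and Tmem119 at 1.10 (0.113), short of the threshold. The intervals were 0.26 to 2.91 for F13a1 and 0.22 to 1.98 for Tmem119. Mrc1 gave 0.36, Csf1r 0.28, Adgre1 0.19 and Aif1 -0.33, and none of these was called. The Cx3cr1 call did not hold without WT replicate 2 or KO replicate 3 at 0 h, or without WT replicate 1 or 3 or KO replicate 2 at 16 h, with adjusted p from 0.056 to 0.0723.

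For 4 h minus 0 h no member was called by limma, with 0.00829% of all genes called, which is 1 gene, lower in KO. Cebpa came nearest, 0.76 with an unadjusted p of 8.25e-04 and an adjusted p of 0.184. It was the single one of the 10 with an unadjusted p below 0.05. With libraries of the same genotype and number paired over all times, the adjusted p was 0.0249. The deviations of the libraries bore out this pairing between 0 and 4 h, but not for every KO library at 16 h, which the fit also paired. Cx3cr1 was at 0.55 (95% interval -0.05 to 1.14).

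The promoters of 4 of the genes higher in KO at 16 h are shown because Elf4 is an ETS factor and this family binds a GGAA core. Sequences are from RefSeq on GRCm38.p6, read 5′ to 3′ along the gene's strand in a window of 300 bases, most of it upstream of the start of transcription. F13a1 (the first of 2 listed starts) lies at chr13:37050195-37050494 on the minus strand, Mrc1 at chr2:14229164-14229463 on the plus strand, Cx3cr1 at chr9:120068247-120068546 on the minus strand and Lyz2 at chr10:117282223-117282522 on the minus strand. Capitals mark GGAA and its reverse complement TTCC.
F13a1: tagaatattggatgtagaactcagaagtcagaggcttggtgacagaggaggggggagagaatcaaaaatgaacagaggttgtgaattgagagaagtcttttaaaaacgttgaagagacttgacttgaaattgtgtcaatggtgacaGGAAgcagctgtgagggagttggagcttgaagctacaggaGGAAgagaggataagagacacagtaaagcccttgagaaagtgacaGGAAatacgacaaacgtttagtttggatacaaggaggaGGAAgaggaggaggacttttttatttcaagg
Mrc1: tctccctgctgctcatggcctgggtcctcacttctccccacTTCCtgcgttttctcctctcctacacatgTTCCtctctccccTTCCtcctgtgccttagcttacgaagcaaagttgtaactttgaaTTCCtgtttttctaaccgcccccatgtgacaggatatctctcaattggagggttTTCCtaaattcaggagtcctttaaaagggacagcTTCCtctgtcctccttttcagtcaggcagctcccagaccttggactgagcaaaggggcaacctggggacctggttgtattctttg
Cx3cr1: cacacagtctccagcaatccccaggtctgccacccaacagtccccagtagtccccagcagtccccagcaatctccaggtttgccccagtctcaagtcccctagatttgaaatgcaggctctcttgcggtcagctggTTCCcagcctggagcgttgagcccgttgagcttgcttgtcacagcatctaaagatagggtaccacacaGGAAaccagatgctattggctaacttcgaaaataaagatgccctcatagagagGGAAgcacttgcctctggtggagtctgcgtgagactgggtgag
Lyz2: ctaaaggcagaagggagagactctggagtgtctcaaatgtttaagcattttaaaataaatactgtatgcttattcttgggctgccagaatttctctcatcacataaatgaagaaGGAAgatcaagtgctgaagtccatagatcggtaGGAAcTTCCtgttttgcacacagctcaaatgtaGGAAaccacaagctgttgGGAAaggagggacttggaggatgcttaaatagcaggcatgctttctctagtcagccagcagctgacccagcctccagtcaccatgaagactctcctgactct

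F13a1 holds 4 matches at the start shown, all GGAA, and 46.3% of 27025 promoters hold as many or more. Its other listed start holds 5, also all GGAA (28.7% of promoters). Mrc1 holds 6, all TTCC, a number reached by 15.7% of promoters. Lyz2 holds 5 (28.7% of promoters) and Cx3cr1 3 (66.5%), the median of all promoters. At least 1 match stands in 95.9% of promoters. Of the genes not called at 16 h, Aif1 holds 3 matches, Cebpb 2 and Cebpa 1. The matches are letters in a window and no measure of binding. Of the 10 genes 7 had a promoter entry.

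After LPS most of the 10 genes were called in WT macrophages, and so were most of all tested genes. At 4 h 7 fell and 1 rose, with 71.3% of all genes called lower and 15.6% higher, and the median of all genes was -0.81, which median-ratio scaling brought to -0.03. Cebpa fell to 0.668% of its 0 h mean (log2 difference -6.35, adjusted p = 4.26e-17) and Cx3cr1 to 4.76% (-4.27, adjusted p = 1.21e-12). Both falls were far beyond the shift of all genes. Tmem119 fell to 18.2%, Csf1r to 48.9%, Mrc1 to 49.7%, Lyz2 to 56.5% and Aif1 to 72.2%. Cebpb rose 5.63-fold (2.49, adjusted p = 1.34e-12). F13a1 was at 52.5% of its 0 h mean and missed the threshold (adjusted p = 0.062), but was called with the WT libraries paired by number (adjusted p = 0.00102). After median-ratio scaling it was at -0.04 (adjusted p = 0.945). That scaling also moved other genes: Mrc1 (-0.09) and Csf1r (-0.12) were no longer called, Lyz2 turned to 0.09 without a call, and Aif1 (0.44) and Adgre1 (0.74) were called higher. In WT at 4 h Aif1, Lyz2 and Adgre1 thus differed in sign between the scalings.

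By 16 h in WT 6 genes were lower than at rest and 3 higher, with 56.5% of all genes called lower, 18.3% higher and a median of -0.41 (0.00 after median-ratio scaling). Mrc1 had fallen furthest, to 3.08% of its 0 h mean (-4.98, adjusted p = 2.18e-16), and F13a1 to 6.79% (-3.46). Cebpa stood at 10.9%, Cx3cr1 at 25.8%, Csf1r at 62.9% and Lyz2 at 67.7%. Csf1r and Lyz2 were no longer called after that scaling (-0.20, adjusted p = 0.0859, and -0.10, adjusted p = 0.62). Cebpb at 5.00-fold, Aif1 at 2.01-fold and Adgre1 at 1.92-fold were higher under both scalings. Tmem119 stood at 106% of its 0 h mean and was not called (0.06, 95% interval -0.56 to 0.68).

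In KO macrophages 8 genes fell at 4 h and 1 rose (70.8% of all genes called lower, 15.6% higher), F13a1 now among the 8 with an adjusted p of 0.0465. The F13a1 call was lost with a pseudocount of 0.1 (adjusted p = 0.0516), with no filter (0.0546), after median-ratio scaling (-0.14, 0.779), and without KO replicate 2 or 3 at 0 h or KO replicate 1 or 3 at 4 h (-1.06 to -0.66, 0.0578 to 0.206). Adgre1 was at -0.20 (adjusted p = 0.0931, and 0.0468 with the KO libraries paired by number over all times). After median-ratio scaling Adgre1 was at 0.67 and called higher, Csf1r was no longer called (-0.19, adjusted p = 0.0983), and Aif1 (0.36) and Lyz2 (0.03) turned above 0 without a call. At 16 h 5 were lower than at rest and 4 higher (50.1% of all genes called lower, 17.8% higher), since Tmem119 had risen to 220% of its 0 h mean (1.16, adjusted p = 0.00216). Lyz2 was at 104% (0.05, adjusted p = 0.755). F13a1 stood at 30.6% of its resting mean, Cx3cr1 at 57.8% and Mrc1 at 4.02%. After median-ratio scaling Lyz2 was called higher at 16 h (0.41, adjusted p = 0.0388), while Cx3cr1 (-0.42, 0.0511) and Csf1r (-0.02, 0.857) were no longer called.

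**Figure D3:**
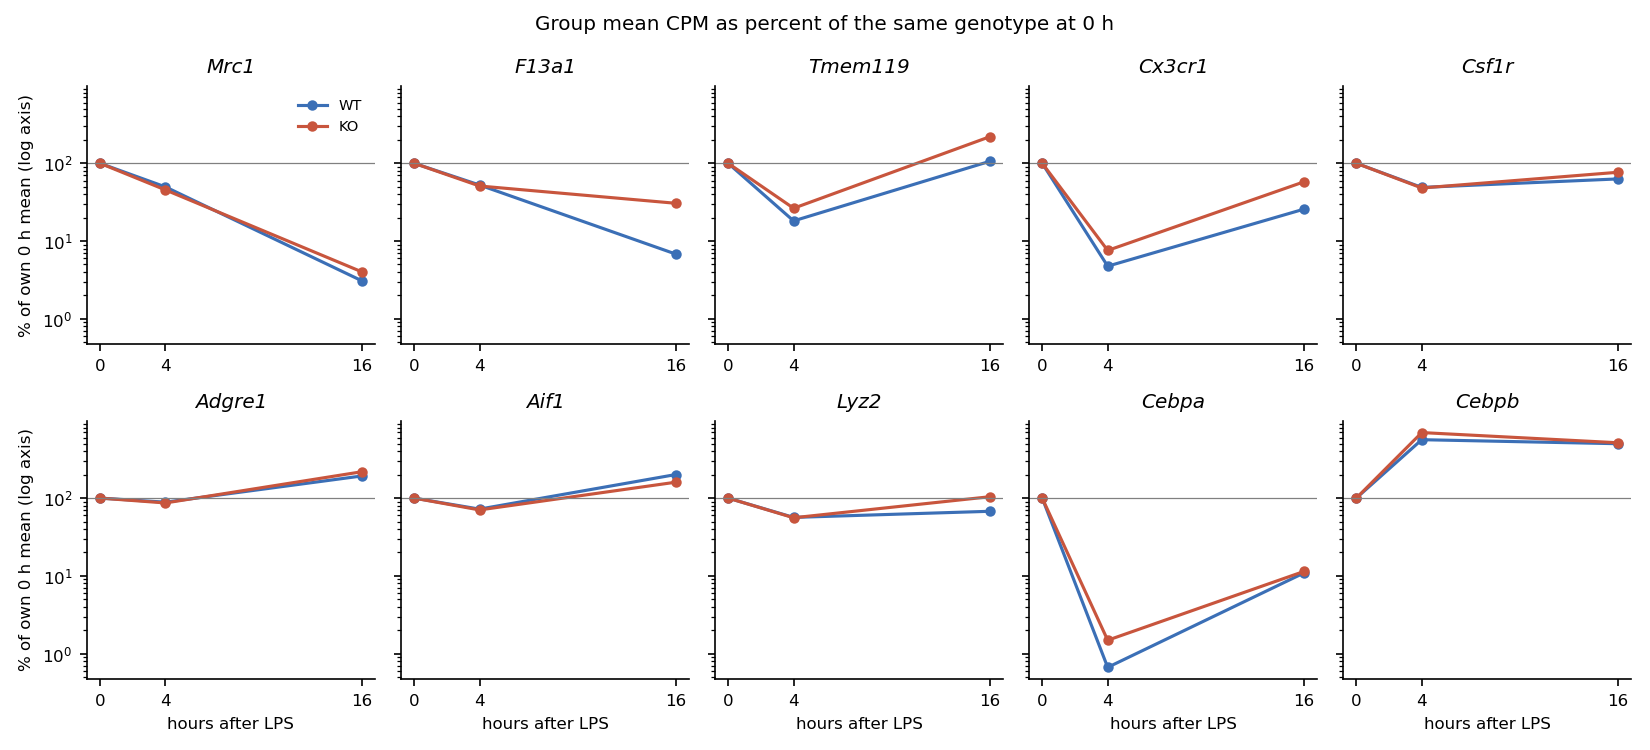
Mean CPM of each gene at 4 and 16 h as percent of the 0 h mean of the same genotype (log axis), WT in blue and KO in red. The lines part most at 16 h for F13a1 (6.79% in WT, 30.6% in KO), Cx3cr1 (25.8% and 57.8%) and Tmem119 (106% and 220%).

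Between 4 and 16 h 6 of the 10 genes rose in WT and 2 fell (51% of all genes called higher and 22.1% lower, median 0.35), and in KO 7 rose and 2 fell (55.7% called higher and 19.6% lower, median 0.43). Mrc1 fell further in both, by 3.97 in WT and by 3.48 in KO. F13a1 fell in WT (-2.54), while in KO it was at -0.88 with an adjusted p of 0.0814. In KO it was called lower after median-ratio scaling (-1.38, adjusted p = 0.00854), with the genotype and number of the library as a random effect (0.0372), without KO replicate 2 at 16 h (-1.37, 0.00987) and without that replicate at every time (-0.97, 0.0292). The genes that rose in both genotypes were Cebpa (3.21 in WT, 2.53 in KO), Cx3cr1 (2.33 and 2.95), Tmem119 (1.76 and 2.71), Aif1, Adgre1 and Csf1r. The Csf1r rise was no longer called in either genotype after median-ratio scaling, and in WT its sign turned (-0.09). Lyz2 rose in KO (0.89, adjusted p = 7.81e-06). In WT it was at 0.26 (adjusted p = 0.0804, 0.0224 with the libraries paired by number, and -0.19 after median-ratio scaling). Cebpb fell in KO (-0.44, adjusted p = 0.00277). In WT Cebpb was at -0.17 (adjusted p = 0.194), and it was called lower after median-ratio scaling (-0.62, adjusted p = 4.99e-05) and with the groups fitted alone (0.00668).

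Other genes of the same roles did not move together at 16 h. Of 24 other resident macrophage genes 4 were higher in KO and 5 lower, with a median of -0.02 against 0.12 for all genes. Among all tested genes 20.9% were called higher in KO at 16 h and 9.65% lower. These shares stand beside the count of this and each later list at 16 h. Cd163, the haemoglobin scavenger receptor, was at 3.51 ± 0.652 CPM (SD, n = 3) in KO and 1.03 ± 0.228 in WT, and Pf4, a platelet chemokine that macrophages also express, at 92.4 ± 13.2 and 48.4 ± 5.10. Both were higher in KO (1.14 and 0.92). Slc40a1, the iron exporter ferroportin, was lower at 9.80 ± 3.22 against 23.7 ± 4.69 (-1.22), as was Folr2, the folate receptor beta (-0.90, adjusted p = 0.00259). The abundant Apoe (0.12) and complement gene C1qb (0.12) were not called.

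Of 9 tested microglia genes 3 were higher in KO at 16 h and none lower, while 20.9% of all genes were called higher and 9.65% lower. Their median was 0.29 against 0.12 for all genes, and 0.19 against 0.02 after median-ratio scaling. Olfml3 was at 27.4 ± 7.73 CPM in KO and 16.6 ± 1.46 in WT (0.66, adjusted p = 0.00354). The ADP receptor P2ry12 (0.54) and the cathepsin Ctsf (0.54) were also called, while Fcrls (0.25) and the lipid receptor Trem2 (-0.14) were not. Of 20 alternative activation genes 3 were higher and 4 lower (median 0.03). Among the called genes with the largest differences Cd163 was higher, as given above, and 3 were lower: Il10, the anti-inflammatory cytokine, at 8.06 ± 2.04 CPM against 20.4 ± 2.42 (-1.25, adjusted p = 6.72e-05), the chemokine Ccl22 (-0.84) and the lipid-sensing nuclear receptor Pparg (-0.66). The IL-4 receptor chain Il4ra (0.38) and fibronectin, Fn1 (0.85), were not called.

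Of 14 genes around the M-CSF receptor 2 were lower in KO, the GM-CSF receptor chain Csf2ra (-0.40) and the transcription factor Mitf (-0.30). Over all genes 20.9% were called higher at 16 h and 9.65% lower. Spi1, which encodes the myeloid ETS factor PU.1, was at 516 ± 40.8 CPM in KO and 528 ± 5.32 in WT (-0.04, not called), and the adaptor Tyrobp at 0.18. Of 5 other genes of C/EBP factors and their regulators 1 was higher, Cebpd (0.64, adjusted p = 5.42e-04). At 4 h, where 2.38% of all genes were called higher and 1.81% lower, 2 of the 5 were called. Cebpg (0.34, adjusted p = 0.0178) and Trib1, a regulator of C/EBP proteins (0.83, adjusted p = 0.00189), were both higher in KO, as Cebpa was. At 16 h these were at -0.04 and -0.19, not called.

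Of 6 genes of related chemokine signalling, the ligand Cx3cl1 and 5 receptors, 1 was lower, Ccrl2 (-1.05, adjusted p = 2.43e-04). At 16 h 9.65% of all genes were called lower and 20.9% higher. Cxcr4 (0.50) was not called. Of 6 relatives of Adgre1 and Mrc1 the mannose receptor family member Pla2r1 was lower (-1.36) and Adgre4 higher (1.14), and Adgrl2 (0.26) and Adgre5 (-0.10) were not called. Of 12 transglutaminase and coagulation genes 2 were higher, Serpinb2 at 143 ± 29.8 CPM against 72.0 ± 12.2 (0.97) and the transglutaminase Tgm1 (0.54). The protein C receptor Procr (-0.65) and the transglutaminase Tgm2 (-0.30) were lower, and Plaur (-0.06) was not called. The transglutaminase and coagulation genes thus shared no direction.

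**Figure D4:**
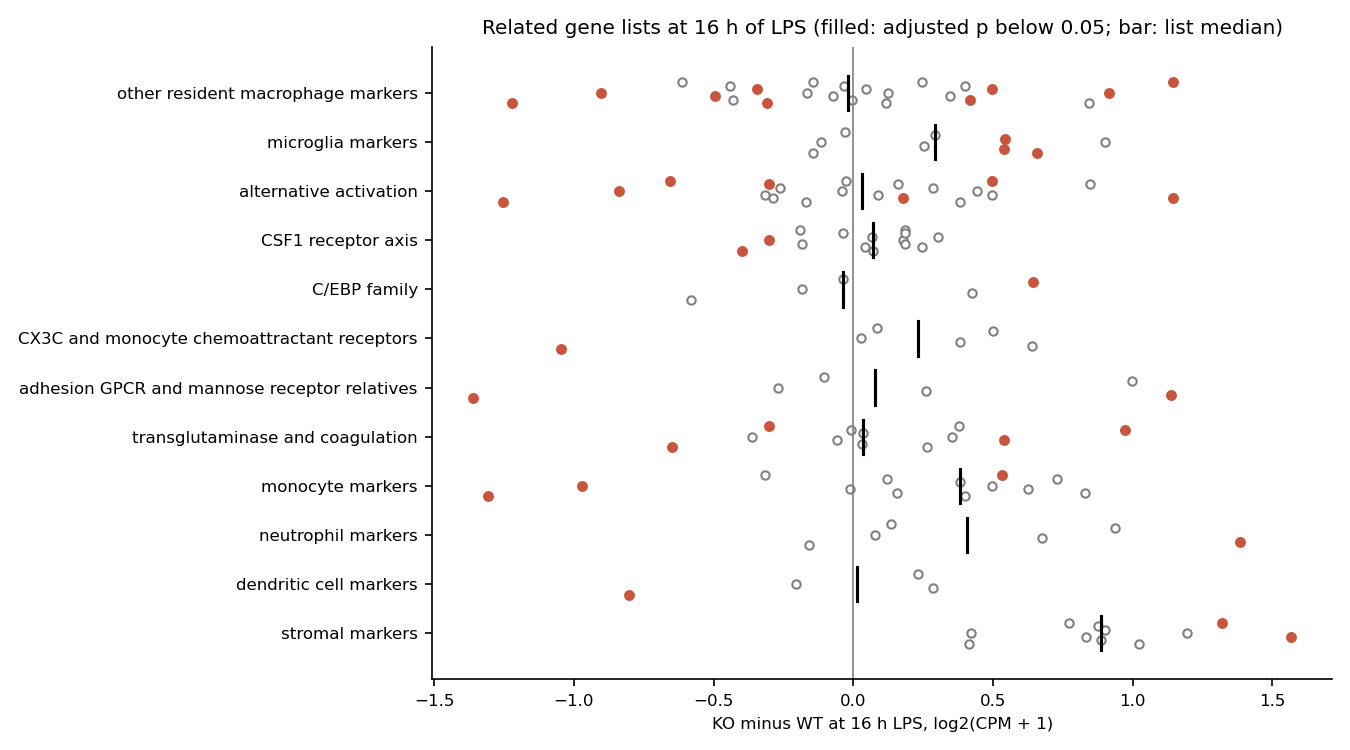
Difference KO minus WT at 16 h of LPS on the log2(CPM + 1) scale for each tested gene of the related lists with at least 4 tested genes, filled where the adjusted p is below 0.05, with a bar at the list's median. Filled points lie on both sides of 0 in the resident macrophage and alternative activation lists, and the stromal list has the highest median, 0.89.

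At 16 h summed markers of monocytes, neutrophils, and erythroid cells with megakaryocytes did not overlap between the genotypes. Those of stromal, dendritic, lymphocyte and mast cells overlapped. The part of other cells in the differences above was not tested. The summed 13 stromal genes were at 551 to 971 CPM in WT and 756 to 2399 in KO at 0 h. They were at 409 to 721 and 569.6 to 1831 at 4 h, and at 645 to 1171 and 1072 to 3284 at 16 h. KO replicate 2 had the highest sum at each time. At 16 h KO replicates 1, 2 and 3 had stromal sums of 1669, 3284 and 1072 CPM beside F13a1 values of 10.2, 55.0 and 36.1 CPM. Tmem119 in the same libraries was at 17.97, 22.5 and 27.0 CPM. At 0 h the KO stromal sums were 1291, 2399 and 756 CPM beside Tmem119 at 11.9, 14.0 and 4.80. In WT at 0 h they were 551, 699 and 971 CPM beside 4.90, 5.58 and 5.74. Within each genotype Tmem119 followed the order of the stromal sums at 0 and 4 h but not at 16 h. Of 11 tested stromal genes 2 were called higher at 16 h, Col3a1 (1.57) and Acta2 (1.32), while Col1a1 (1.20) and Col1a2 (1.02) were not. Over all genes 20.9% were called higher at 16 h. Without KO replicate 2 at every time 7 of the 10 genes were called at 16 h, 2 at 4 h and 0 at 0 h, with 2957, 350 and 20 of all genes called at these times. Adgre1 was no longer among them at 16 h (adjusted p = 0.0725) and Aif1 was (adjusted p = 0.0417).

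The summed 14 monocyte genes were at 1236 to 1360 CPM in KO and 1676 to 1759 in WT at 16 h, without overlap. The median difference of the 13 that were tested had the other sign, 0.38 against 0.12 for all genes. At 0 h they were 567 to 652 in KO and 475 to 570.2 in WT, and at 4 h 973 to 1153 and 991 to 1062. Among these, Ms4a4c (-0.97) was lower and S100a4 higher (0.53) at 16 h, while Vcan (-0.01) and Hp (0.83) were not called. The monocyte markers Ly6c2 and Ccr2 reached at most 5.39 and 42.0 CPM in any library. The 10 neutrophil genes summed to 223 to 256 CPM in KO and 194 to 205 in WT at 16 h. Of 6 tested, S100a8 was higher (1.38, adjusted p = 0.0114), and Csf3r (-0.16) and S100a9 (0.94) were not called.

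Dendritic cell genes summed to 30.1 to 42.0 CPM in KO and 28.4 to 50.4 in WT at 16 h, and of 4 tested Xcr1 was lower (-0.80), with Itgax (-0.21) and Ccr7 (0.28) not called. Erythroid and megakaryocyte genes, mostly Pf4, summed to 82.9 to 111 CPM in KO and 45.9 to 55.8 in WT. Of 3 tested, Pf4 was called and Ppbp (0.51) and Itga2b (0.58) were not. Lymphocyte genes stayed at 3.23 to 8.82 CPM in sum at 16 h and mast cell genes at 0.569 to 1.38, with 1 tested gene each, Cd4 (0.72) and Kit (0.30), neither called.

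**Figure D5:**
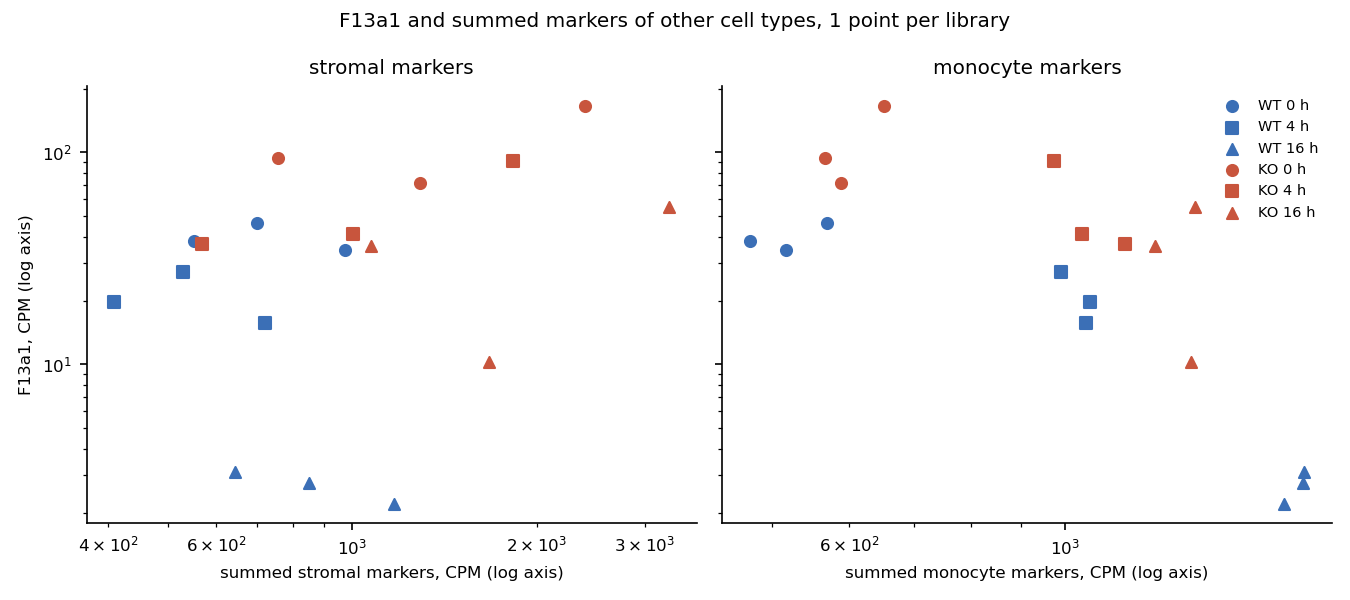
F13a1 CPM against the summed CPM of stromal genes (left) and monocyte genes (right), both axes log, with 1 point per library, colour for the genotype and shape for the time. At 16 h (triangles) the KO libraries lie above WT in F13a1 with stromal sums of 1072 to 3284 against 645 to 1171 CPM and monocyte sums of 1236 to 1360 against 1676 to 1759.

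The genes most like each member over the 18 libraries were sought among 9536 tested genes averaging 5 CPM or more, by Pearson's r of log2(CPM + 1), as a description, since all of them share the change with LPS. F13a1 was followed most closely by Pf4 (r = 0.96) and Stat4 (0.92). Mrc1 ran with Sulf2 and Mmd (both 0.99), Cx3cr1 with Polr1b and Phf10 (both 0.99) and Csf1r with Mxi1 and Acadm (both 0.99). Adgre1 was closest to Itgam, the integrin chain CD11b (0.98), and to Pla2g7 (0.98). Tmem119 was closest to Atp2c1 (0.96) and Manf (0.95), Aif1 to Il21r (0.96) and Gdpd1 (0.95), and Lyz2 to Lyz1 (0.998) and Hagh (0.96). Cebpa ran with Phf3 (0.996) and Jade1 (0.995), and Cebpb with Clec4e and Tnip1 (both 0.99), the first a receptor and the second a brake of inflammatory signalling. Among the members themselves r between Mrc1 and F13a1 was 0.75 and between Tmem119 and Lyz2 0.81.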

How the data were processed

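The authors deposited the macrophage data as CPM, computed by them from read counts, in 1 table of 14897 rows, per the file headers. The submitters' processing notes name mm10 as the build and list Partek 10.0.21.0411, DESeq2, Bowtie2, BWA and MACS2 without saying which of them made this table. The lowest deposited value is 0.0001, and 1 duplicate row was dropped. The depth of 11.5 to 16.8 M reads comes from low values, 94.9 to 96.3% of which lay within 0.1 read of a whole number of reads, and it limits the precision of low CPM. Groups were taken from the sample titles.

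For the tests, log2(CPM + 1) of all 18 libraries went into 1 limma fit (version 3.58.1, R 4.3.3, eBayes with an intensity trend), with a mean for each of the 6 groups. A gene entered the fit with 1 CPM or more in 3 libraries or more, which 12058 did. Tests were two-sided, adjusted by Benjamini-Hochberg over all of these genes, with a threshold of 0.05. The spread of a gene is thus shared by the groups (17.3 degrees of freedom, 12 of them residual). The script was tested on simulated data. Alternatives were a pseudocount of 0.1, no filter, a filter at 5 CPM, median-ratio scaling, the groups compared alone, a replicate block, the source of the cells as a random effect, and each library left out in turn.

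Same-numbered WT and KO libraries did not deviate together (r of gene deviations -0.20 to 0.12), so the number pairs nothing between genotypes. Libraries of 1 genotype and number did between times in WT (0.11 to 0.31) and in KO between 0 and 4 h (0.19 to 0.53). In KO 1 pair fell below 0.1 between 0 and 16 h (0.06) and 1 between 4 and 16 h (0.08), so no pairing was taken there. The pairing rests on these deviations, since the table's header gives each library a mouse number of its own. The text names all 10 genes and, of each related list, up to 4 called genes with the largest KO difference at 16 h and up to 2 abundant ones not called. Some genes that this rule names are not reported here. The genes and lists were chosen with earlier results of these data known. Other libraries of the series were not analysed here.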

Additional observations from a re-analysis of the deposited data

Results flagged for a closer look

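The KO difference of Cx3cr1 at 16 h of LPS exceeded that at 0 h by 1.16 on the log2(CPM + 1) scale (adjusted p = 0.0253, limma test of the difference itself). It stands out because the same genotype comparison gave different results at the 2 times: the 3 KO libraries were above the 3 WT libraries at 16 h, and the groups overlapped at 0 h. The call was lost without any of 5 of the 12 libraries compared, and all of these alternatives kept the direction.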

How the results depend on the processing

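Of the 10 genes, 7 were called in KO against WT at 16 h, and the other settings gave 5 to 8. The 2 called at 4 h became 1 with the groups fitted alone and 4 with the replicate block, which added F13a1 and Cx3cr1. For KO against WT that block joins WT and KO libraries of the same number, a pairing their deviations did not bear out. The 1 called at 0 h became 0 under median-ratio scaling, with the groups fitted alone and without KO replicate 2 at every time. For the KO effect at 4 h minus 0 h, 0 became 1 with the replicate block. At 16 h minus 0 h, 1 became 2 with a filter at 5 CPM, with the source as a random effect and without KO replicate 2 at every time, and 5 with the replicate block (Mrc1, F13a1, Tmem119 and Lyz2 beside Cx3cr1). In both of these the block joins libraries of the same genotype and number over all times. That includes KO at 16 h, where no pairing was taken. Leaving out 1 library gave 0 to 1 genes at 0 h, 1 to 2 at 4 h and 0 to 3 for 16 h minus 0 h. In WT and KO between times the counts stayed within 1.5 times of those reported. The block added the call of F13a1 in KO between 4 and 16 h (adjusted p = 0.00179), where the numbers were not taken to pair the libraries, beside those named above, and changed no other call of these genes.

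Median-ratio scaling reversed signs at 4 h against 0 h for Adgre1 (0.74 in WT, 0.67 in KO), Aif1 (0.44 and 0.36) and Lyz2 (0.094 and 0.026), and at 16 h against 4 h in WT for Csf1r (-0.087) and Lyz2 (-0.19). It is by construction a shift of all genes. Values near 0 that changed sign when 1 library was left out were Cebpa (-0.078 to 0.12) and Cebpb (-0.089 to 0.0066) in KO against WT at 16 h, Tmem119 in WT (-0.035 to 0.21) and Lyz2 in KO (-0.058 to 0.18) at 16 h against 0 h. Cebpa at 16 h was -0.11 after median-ratio scaling and -0.028 without KO replicate 2 at every time, where Lyz2 in KO was -0.011. The cause of these changes was not tested.

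Over all genes the number called moved by more than 1.5 times in the comparisons with few calls. It went from 53 to 1 to 103 at 0 h (18 to 95 with 1 library left out), from 505 to 205 to 635 at 4 h (248 to 474), from 1 to 0 to 43 for 4 h minus 0 h (0 to 40) and from 778 to 594 to 1788 for 16 h minus 0 h (283 to 1030). At 16 h the split was 2520 higher and 1163 lower, and 1507 and 1681 after median-ratio scaling. A planned test on read counts was not run, because whole reads could not be recovered closely enough from the CPM. Depth limits Tmem119 and Cebpa at 4 h and F13a1 in WT at 16 h, which stood at a few CPM.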
